A study of Mus musculus with 4 samples.

Results

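The cardiac calcium handling genes were 10 genes chosen by name, Atp2a2, Ryr2, Pln, Sln, Casq2, Cacna1c, Slc8a1, Camk2d, Trdn and Hrc, each found once among the 55401 genes of the count files. RNA was sequenced from the heart and the kidney of C57BL/6 mice after cecal ligation and puncture (CLP), a surgical model of sepsis in which contents of the gut enter the abdomen, with melatonin (CLP+MLT) or without it (CLP). There was 1 library in each of the 4 groups, so that no difference between libraries could be set against the spread between mice. Both tissues carried the CLP injury, and no library from uninjured mice was used here. For the kidney experiment the methods give male mice aged 8 weeks, drinking water with 25 μg/ml of melatonin for the 14 days before CLP, and collection 24 h after it. For the hearts no dose or time was found, and for no library is it stated whether the RNA was that of 1 mouse or of a pool. The titles of both melatonin libraries read CLP+MLT4, and the 4 is not explained.

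Each heartbeat depends on calcium moving in and out of the cytosol of the cardiomyocyte. A small entry through the L-type channel opens the ryanodine receptor of the sarcoplasmic reticulum (SR), the calcium released there drives contraction, and the SR pump SERCA and the sodium-calcium exchanger of the cell surface then clear it. Impaired contraction of the heart is a known complication of sepsis, and calcium cycling is one of the processes studied in it.

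The hearts held 16623050 (CLP) and 15883057 (CLP+MLT) reads on genes, the kidneys 22927905 and 16474248. Genes of the mitochondrial genome took 31.6% and 36.0% of the counts in heart and 14.8% and 24.2% in kidney. The heart label was borne out by the cardiomyocyte markers, which summed to 46852 counts per 1000000 reads (CPM) in the CLP heart and 22.4 CPM in the CLP kidney. Kidney tubule markers summed to 406 CPM in the CLP heart and 858 CPM in the CLP+MLT heart, against 28800 and 35414 CPM in the kidneys. The 10 genes together took 0.579% of the counts in the CLP heart and 0.546% in the CLP+MLT heart. In whole tissue, fewer cells of a type and less RNA per cell cannot be told apart.

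Between the heart libraries, 8 of the 9 measurable genes differed by less than 1.5-fold and 1, Hrc, was 2.18-fold lower in the CLP+MLT library. Sln had no read in either heart. Log2 ratios of CLP+MLT over CLP were computed after TMM scaling within the tissue, for genes that averaged 10 counts or more over both libraries, and a ratio of at least 1.5-fold was taken as the threshold. Of the 15871 genes tested in heart, 23.5% passed it in either direction, 10.7% as higher and 12.7% as lower, so that 1 of 9 was not above the share over all genes. The median log2 ratio of the 9 genes was −0.14, and that of all genes tested was −0.0030. The intervals of log2 ratios are at the 95% level, were computed by the exact Clopper-Pearson method, and include only the error of counting reads. At a threshold of 2-fold 1 of the 9 (Hrc) passed, as did 9.83% of all genes. With a binomial p of at most 0.01 on the reads added to 1.5-fold, which compares libraries and not conditions, it was again Hrc alone, against 15.6% of all genes. With the exact test of edgeR at an assumed coefficient of variation between mice of 0.2 Hrc passed, against 4.19%, and at 0.4 none of the 9 did, against 0.397%.

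**Figure D1:**
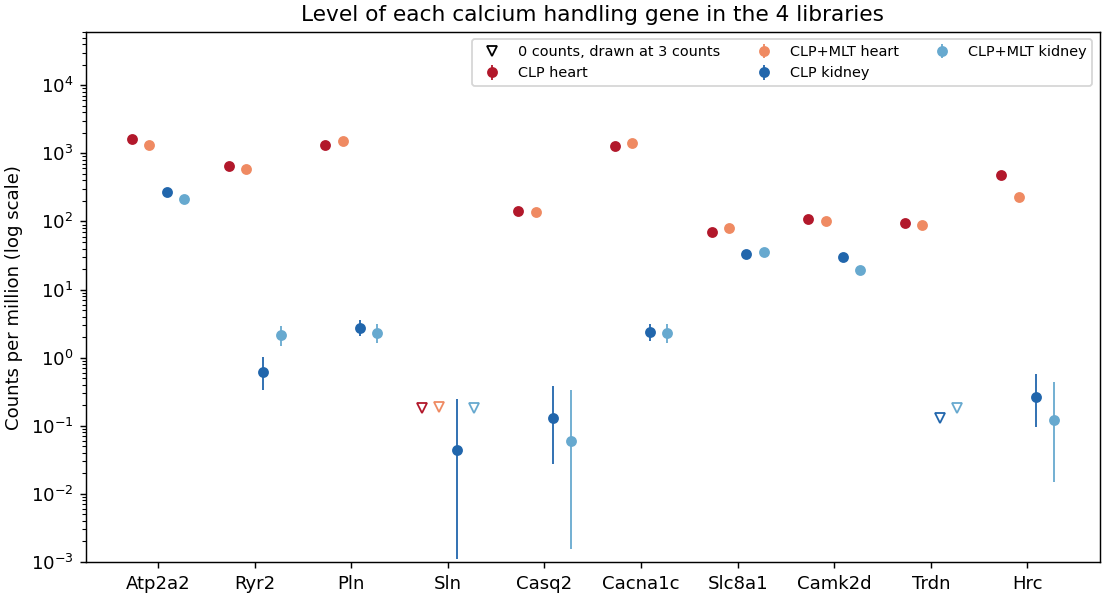
Level of each gene in CPM on a log axis, with exact Poisson intervals for counting error, in the 4 libraries. Triangles mark genes with 0 counts and are drawn at the level of 3 counts. In heart 9 genes lay between 70.8 and 1624 CPM, while in kidney Atp2a2, Slc8a1 and Camk2d were the genes above 10 CPM.

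Calcium uptake into the SR is carried out by SERCA2, the product of Atp2a2 (ENSMUSG00000029467.15, GRCm38 chromosome 5 from 122453513 to 122502225). Atp2a2 had 26997 counts in the CLP heart and 21176 in the CLP+MLT heart, or 1624 and 1333 CPM. The log2 ratio was −0.35 (−0.37 to −0.32), the lowest of the genes apart from Hrc and inside the 1.5-fold threshold. Pln (ENSMUSG00000038583.13, chromosome 10 from 53337667 to 53345987) encodes phospholamban, the small membrane protein that holds SERCA back until it is phosphorylated. It had 22405 and 23789 counts, 1348 and 1498 CPM, and a log2 ratio of 0.09 (0.06 to 0.12). The pump was thus the lower and its inhibitor the higher of the pair in the CLP+MLT heart, each by less than 1.5-fold.

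The balance of both can be read within a library, where no scaling enters. There were 1.20 Atp2a2 counts for each Pln count in the CLP heart and 0.89 in the CLP+MLT heart, a change of 0.739-fold with an exact conditional interval of 0.720 to 0.758. Pln shares 1644 of its 2759 exonic bases (59.6%) with Gm47644, a noncoding gene on the other strand that had 15167 and 17214 counts in the hearts. The library kit named in the labels does not mark strand and the strand setting of the counting is not given, so reads of these genes cannot be told apart. With Gm47644 added to Pln, the log2 ratio in heart was 0.13 and the log2 change of Atp2a2 to Pln was −0.48, against −0.44 for Pln alone. Sarcolipin, the product of Sln (ENSMUSG00000042045.6, chromosome 9 from 53850164 to 53854560), is a relative of phospholamban that in mice is made chiefly in atria and skeletal muscle. It had 0 counts in both hearts, with exact Poisson upper limits of 0.222 CPM in the CLP heart and 0.232 CPM in the CLP+MLT heart. The floor of 3 counts per library was 0.18 and 0.189 CPM. The atrial light chain gene Myl7 had 1 and 0 counts there and Bmp10 had 0, while Nppa had 2287 and 1009 counts. The skeletal muscle myosin genes Myh1, Myh2 and Myh4 were at 0 in both hearts. The summed level of the 6 atrial markers was 226 CPM in the CLP heart and 121 CPM in the CLP+MLT heart. Most of that sum was Nppa (137.6 and 63.5 CPM) and Kcnj3 (75.9 and 50.6 CPM), so it is no measure of the atrial share. The part of atrial tissue in the values of the calcium genes was not tested.

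Calcium release runs through Ryr2 (ENSMUSG00000021313.16, chromosome 13 from 11553102 to 12106945), the ryanodine receptor of the SR. Ryr2 had 10785 counts in the CLP heart and 9417 in the CLP+MLT heart, 649 and 593 CPM, with a log2 ratio of −0.19 (−0.23 to −0.15). The difference was well inside the 1.5-fold threshold, although its counting interval did not reach 0. Other choices of scaling or trend put it between −0.28 and −0.13, a range wider than that interval. Casq2 (ENSMUSG00000027861.13, chromosome 3 from 102086415 to 102146514) encodes calsequestrin, the main calcium buffer in the SR lumen. It had 2354 and 2217 counts and a log2 ratio of −0.08 (−0.17 to 0.0024), and its counts could not show a difference of this size. Trdn (ENSMUSG00000019787.9, chromosome 10 from 33080554 to 33476709) encodes triadin, which ties calsequestrin to the ryanodine receptor. It had 1558 and 1406 counts, with a log2 ratio of −0.14 (−0.25 to −0.04). The ratio of Casq2 to Ryr2 counts was 0.218 in the CLP heart and 0.235 in the CLP+MLT heart, and that of Trdn to Casq2 was 0.662 and 0.634. These genes of the release complex therefore kept nearly the same proportions, with a change of 1.08-fold (1.01 to 1.15) for Casq2 to Ryr2 and of 0.958-fold (0.873 to 1.05) for Trdn to Casq2.

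Hrc (ENSMUSG00000038239.11, chromosome 7 from 45335290 to 45338974) stood apart from the others. It encodes the histidine-rich calcium-binding protein of the SR lumen, which binds triadin and SERCA. Hrc had 7863 counts in the CLP heart and 3595 in the CLP+MLT heart, 473 and 226 CPM. The log2 ratio of −1.12 (−1.18 to −1.07) lay at percentile 3.99 of all genes tested in heart. Against Casq2, the other calcium-binding protein of the SR lumen in the list, there were 3.34 Hrc counts for each Casq2 count in the CLP heart and 1.62 in the CLP+MLT heart, a change of 0.485-fold (0.452 to 0.521). Casq2 and Pln have exonic lengths of 2736 and 2759 bases, close to the 2566 bases of Hrc, and neither passed the threshold. They differ from it in the GC content of the longest transcript, which was 53.3% for Hrc, 47.2% for Casq2 and 38.6% for Pln. With the trend on gene length removed, the log2 ratio of Hrc was −1.07, and with that on GC content removed it was −1.08. The part of length or GC content in the Hrc value was not tested.

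The sequence before the start of a gene can be set beside these values. RefSeq promoters (GRCm38.p6) matched 7 of the 10 genes, and the 250 bases before the start are shown for Hrc, the gene that differed, and for Casq2 and Pln, which have a like exonic length and did not. All are on the forward strand, at chr7:45335019-45335268 for Hrc, chr3:102086165-102086414 for Casq2 and chr10:53337436-53337685 for Pln. Capitals mark matches on either strand to a MEF2 site, a CArG box, TATAAA or AGATAA, the last being a core bound by GATA factors.
Hrc: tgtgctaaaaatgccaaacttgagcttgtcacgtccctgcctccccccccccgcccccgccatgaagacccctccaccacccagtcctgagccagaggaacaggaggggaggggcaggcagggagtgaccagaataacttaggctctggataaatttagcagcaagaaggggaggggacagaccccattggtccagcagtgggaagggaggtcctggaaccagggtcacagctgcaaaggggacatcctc
Casq2: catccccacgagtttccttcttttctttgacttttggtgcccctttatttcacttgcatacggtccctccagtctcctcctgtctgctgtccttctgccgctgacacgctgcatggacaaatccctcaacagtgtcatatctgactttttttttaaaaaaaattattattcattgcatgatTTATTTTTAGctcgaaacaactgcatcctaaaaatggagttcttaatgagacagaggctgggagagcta
Pln: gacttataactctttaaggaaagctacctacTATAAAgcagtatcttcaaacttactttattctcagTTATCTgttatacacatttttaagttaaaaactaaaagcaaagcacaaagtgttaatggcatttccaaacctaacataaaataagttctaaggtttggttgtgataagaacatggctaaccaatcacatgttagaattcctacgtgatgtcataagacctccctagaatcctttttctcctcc

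Casq2 held 1 MEF2 site, 59 bases before the start, as did 2.92% of all 32851 promoter windows of this length. Pln held 1 TATAAA, found in 12.4% of windows, and 1 AGATAA, found in 9.99%. Hrc held none of the capitalised motifs in this window. CANNTG (an E-box, not capitalised), which 66.2% of windows had, occurred 1 time in Hrc, 2 times in Casq2 and 1 time in Pln. No window of the 7 genes held a CArG box, which 1.47% of all windows did. The windows also differed in base composition, with 59.6% G and C for Hrc, 41.6% for Casq2 and 32.8% for Pln. A match of letters is a description and not a site of binding.

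**Figure D2:**
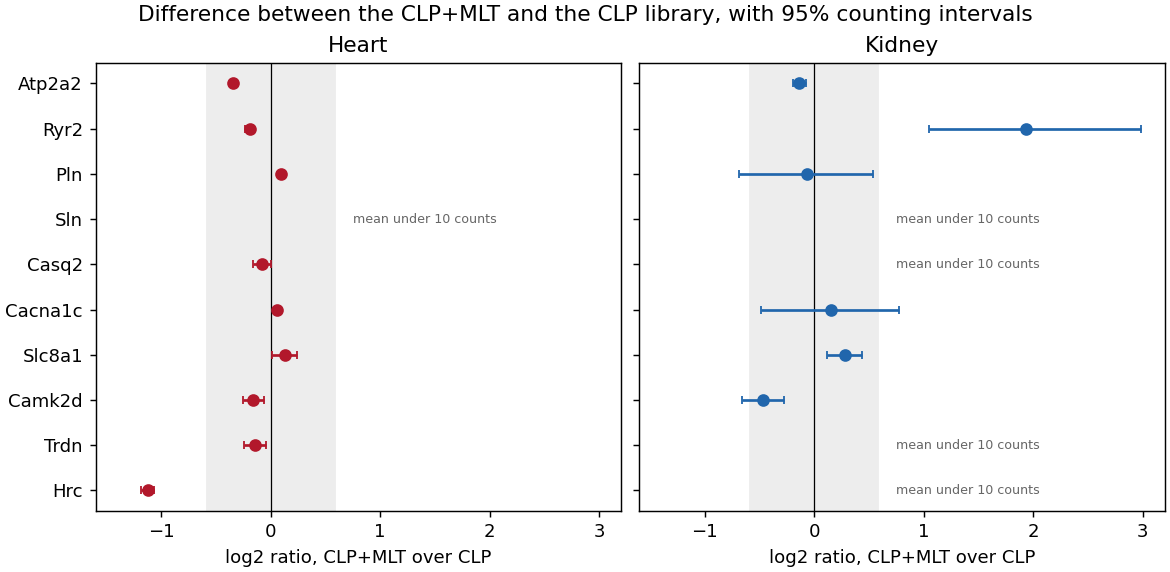
Log2 ratio of the CLP+MLT over the CLP library for each gene, in heart (left) and kidney (right), with bars for 95% counting intervals and grey for less than 1.5-fold. In heart Hrc alone lay outside the grey band, at −1.12, and in kidney Ryr2 alone did, at 1.93.

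Of the 10 genes, Cacna1c and Slc8a1, which serve calcium entry and extrusion across the cell surface, had small positive ratios in heart. The medians of other genes of these groups were −0.12 for channel subunits and regulators and −0.13 for exchangers and surface pumps. Cacna1c (ENSMUSG00000051331.16, chromosome 6 from 118587240 to 119196418), the pore of the L-type channel, had 21387 and 22175 counts and a log2 ratio of 0.06 (0.03 to 0.08). Its sign depended on the processing, since the log2 ratio was −0.03 with the trend on gene length removed. Slc8a1 (ENSMUSG00000054640.15, chromosome 17 from 81373105 to 81738377) encodes the sodium-calcium exchanger, which carries calcium out of the cell. It had 1177 and 1281 counts and a log2 ratio of 0.13 (0.01 to 0.24). Set against the pump, there were 0.0436 Slc8a1 counts for each Atp2a2 count in the CLP heart and 0.0605 in the CLP+MLT heart, a change of 1.39-fold (1.28 to 1.51). Ryr2 to Atp2a2 went from 0.399 to 0.445, a change of 1.11-fold (1.08 to 1.15). Camk2d (ENSMUSG00000053819.16, chromosome 3 from 126596302 to 126846326) encodes a kinase that phosphorylates both the ryanodine receptor and phospholamban. It had 1800 and 1607 counts, with a log2 ratio of −0.16 (−0.26 to −0.06).

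Per length, the genes had the same order in both hearts. In the unit TPM (counts per base of gene, summing to 1000000 in a library, here from the exonic length of each gene), Pln was highest with 870 in the CLP heart and 1026 in the CLP+MLT heart. Atp2a2 followed with 476 and 414 TPM and Hrc with 328 and 167 TPM. Cacna1c had 108 and 124.5 TPM, Casq2 92.2 and 96.4, Ryr2 40.1 and 38.9, and Trdn 17.8 and 17.9. Camk2d with 8.57 and 8.5 TPM and Slc8a1 with 6.70 and 8.10 TPM were lowest. The exonic length is the union over all transcripts of a gene, which understates the level of genes with many forms.

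Most of the genes were the leading form of their family in heart. By TPM, Ryr2 made up 99.1% of the ryanodine receptors in the CLP heart and 99.4% in the CLP+MLT heart, Atp2a2 97.7% and 96.6% of the SERCA pumps, and Casq2 96.0% and 96.3% of the calsequestrins. Slc8a1 made up 94.8% and 93.7% of the exchangers, and Cacna1c 93.7% and 95.0% of the L-type pores. Sln, at 0 counts in both hearts, and Camk2d did not lead their families. Camk2d had 16.6% and 13.5% of the kinase family, behind Camk2g with 58.6% and 59.0% and Camk2a with 22.8% and 25.8%. This share rests on the length used: with the longest transcript in place of the union, Camk2d had 32.5% and 27.5%. In counts, Camk2d (1800 and 1607) and Camk2g (1812 and 2007) were close in the CLP heart. Among Pln, Sln and Mrln, which encode small SERCA-binding proteins, Pln made up 99.8% in the CLP heart. Strit1, the gene of another such protein (DWORF), was not found by symbol and is not in this share. Mrln, the gene of myoregulin, had 21 and 2 counts.

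In kidney the genes fell into a widely expressed group and a group near 0. Atp2a2 had 6171 counts in the CLP kidney and 3552 in the CLP+MLT kidney, which by CPM was 16.6% and 16.2% of its level in the matching heart. Slc8a1 had 772 and 593 counts, or 47.6% and 44.6% of the heart level, and Camk2d 689 and 316 counts, or 27.8% and 19.0%. Pln had 63 and 38 counts, Cacna1c 54 and 38, and Ryr2 14 and 35, at most 0.358% of the heart level. Hrc had 6 and 2 counts, Casq2 3 and 1, and Sln 1 and 0. Trdn had 0 in both kidneys. Its CPM in the heart was 716-fold (CLP) and 486-fold (CLP+MLT) that of a floor of 3 counts in the kidney library. The exact Poisson upper limits of Trdn in the kidneys were somewhat above that floor, at 0.161 and 0.224 CPM. The family that supplied the L-type pore also differed by tissue: in kidney Cacna1d made up 98.9% (CLP) and 99.1% (CLP+MLT) of it and Cacna1c 0.863% and 0.777%.

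In kidney 6 genes averaged 10 counts or more, and 1 of them passed 1.5-fold, as did 22.7% of the 16932 genes tested (10.6% higher and 12% lower). This was Ryr2, with a log2 ratio of 1.93 (1.05 to 2.99) from 14 and 35 counts. It also passed at 2-fold (9.03% of all genes), with the binomial test (15.1%) and at an assumed variation of 0.2 (3.62%), but not at 0.4 (0.543%). Cardiomyocyte markers moved beside it in the same libraries: 5 of the 11 with enough counts were at least 1.5-fold higher in the CLP+MLT kidney and 2 were lower. Of all 11, Myh7 had 5 and 18 counts and Actn2 10 and 24, while Ttn had 68 and 42. The summed level of all 15 markers was 22.4 CPM in the CLP kidney and 27.7 CPM in the CLP+MLT kidney. The part of the cells they mark in the Ryr2 value was not tested. Atp2a2 had a log2 ratio of −0.14 (−0.20 to −0.08), Slc8a1 of 0.28 (0.12 to 0.43) and Camk2d of −0.47 (−0.66 to −0.27). The intervals of Pln at −0.07 (−0.69 to 0.53) and Cacna1c at 0.15 (−0.49 to 0.78) held 0, and differences of those sizes were not detectable at these counts. Scaled by library size only, which moved the median of all genes in kidney from −0.01 to −0.19, Camk2d was at −0.65 and passed the threshold, and Cacna1c was at −0.03. Atp2a2 was then at −0.32 and Slc8a1 at 0.10, both outside their counting intervals.

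The log2 ratios in heart and kidney were compared for those 6 genes from the 4 counts of each, with exact conditional intervals. Heart minus kidney was −0.21 (−0.27 to −0.14) for Atp2a2 and 0.31 (0.09 to 0.53) for Camk2d. For Pln it was 0.16 (−0.44 to 0.78), for Cacna1c −0.09 (−0.72 to 0.54) and for Slc8a1 −0.15 (−0.35 to 0.04), all with 0 inside. Ryr2 differed most, with −2.13 (−3.18 to −1.24), which rests on the 49 reads of the kidneys. Scaled by library size only, the sign turned for Atp2a2 (0.035), Slc8a1 (0.092) and Cacna1c (0.15), and Camk2d was at 0.55. These intervals compare the libraries and not the conditions.

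**Figure D3:**
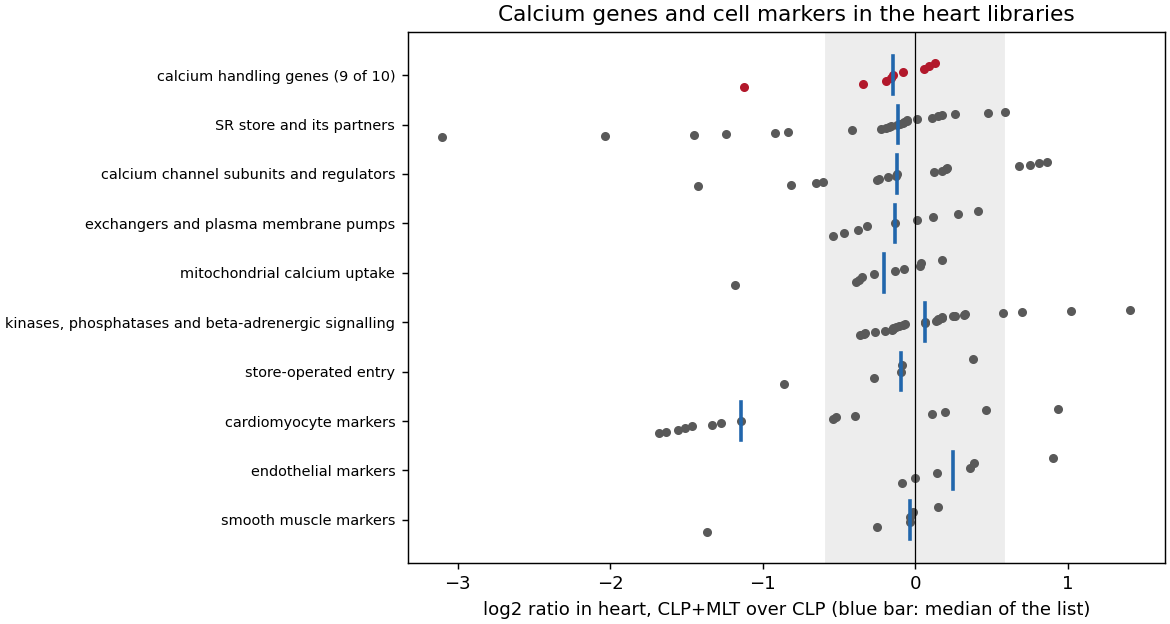
Log2 ratio in heart of CLP+MLT over CLP for single genes (points) with at least 10 counts on average, by list, with the median as a blue bar and grey for less than 1.5-fold. The median was −0.14 for the calcium handling genes and −1.14 for the cardiomyocyte markers.

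Of 100 other genes of calcium handling, written from general knowledge in 6 groups, 99 were found and 92 passed the filter in heart. At least 1.5-fold higher were 8 and at least 1.5-fold lower were 12, which was near the share over all genes, and their median log2 ratio was −0.09. Among those with at least 100 counts on average, S100a1 was lowest, with 6591 counts in the CLP heart and 2405 in the CLP+MLT heart and a log2 ratio of −1.45 (−1.52 to −1.38). It encodes a calcium sensor that binds SERCA and the ryanodine receptor. Smdt1, a subunit of the calcium channel of mitochondria, had 1634 and 718 counts and a log2 ratio of −1.18 (−1.31 to −1.05). Lower as well were Lrrc10 at −0.92, Tmem38b, which encodes a potassium channel of the SR, at −0.84, and the L-type pore Cacna1d at −0.82. Higher were Ahnak at 0.81, the T-type channel gene Cacna1h at 0.75, the phosphodiesterase gene Pde4d at 0.70 and the inositol trisphosphate receptor gene Itpr3 at 0.59. Exonic lengths were 694 bases for S100a1, 1479 for Smdt1, 1428 for Lrrc10, 3807 for Tmem38b and 12621 for Cacna1d. Those of the higher genes were 19938 for Ahnak, 9763 for Cacna1h, 12006 for Pde4d and 9019 for Itpr3. The part of length in these ratios was not tested.

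By group, the partners of the SR store had 1 gene higher and 6 lower of 24, and the channel subunits 4 higher and 4 lower of 17, where 10.7% of all genes in heart were higher and 12.7% lower by 1.5-fold. The exchangers and surface pumps had none past 1.5-fold among 9, from −0.54 for Fxyd1 to 0.41 for Slc8a2. Mitochondrial calcium uptake had 1 lower of 10, store-operated entry 1 lower of 5 (Orai1 at −0.86), and the kinases, phosphatases and beta-adrenergic genes 3 higher of 27. Junctophilin 2 (Jph2), which holds the SR to the surface membrane, was at −0.23, close to Ryr2. In kidney 86 of the other calcium genes passed the filter, with 10 higher and 10 lower by 1.5-fold, near the 22.7% of all genes in kidney that passed in either direction. Scaled by library size only, which moved the median of all genes in kidney to −0.19, 7 were higher and 16 lower there. The share over all genes is not given for that scaling, so these counts are no result about the calcium genes.

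The cardiomyocyte markers gave other values in the same hearts. Of 15 markers, 1 was higher and 8 were lower by at least 1.5-fold (10.7% and 12.7% of all genes), with a median of −1.14, from −1.68 for Tnnc1 to 0.94 for Myh7. Their summed level was 46852 CPM in the CLP heart and 30626 CPM in the CLP+MLT heart. The medians of other markers were −0.95 for atrial, −0.62 for ventricular, −0.19 for skeletal muscle, 0.82 for kidney tubule and −0.04 for smooth muscle genes. They were 0.25 for endothelial, −0.29 for fibroblast, 0.15 for leukocyte and −0.04 for red cell genes. Hrc at −1.12 lay near the median of the cardiomyocyte markers, whereas the other 8 genes, from −0.35 to 0.13, lay between Myh6 (−0.40) and Ttn (0.19), and the difference between the lists was not tested. The exonic length of the markers had a median of 2671 bases, against 9352 for the 9 genes. Across the 9 genes, Spearman's rho of the log2 ratio was 0.117 with exonic length and −0.55 with the GC content of the longest transcript. Over all genes tested these were 0.135 and −0.099, and genes are not independent replicates.

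**Figure D4:**
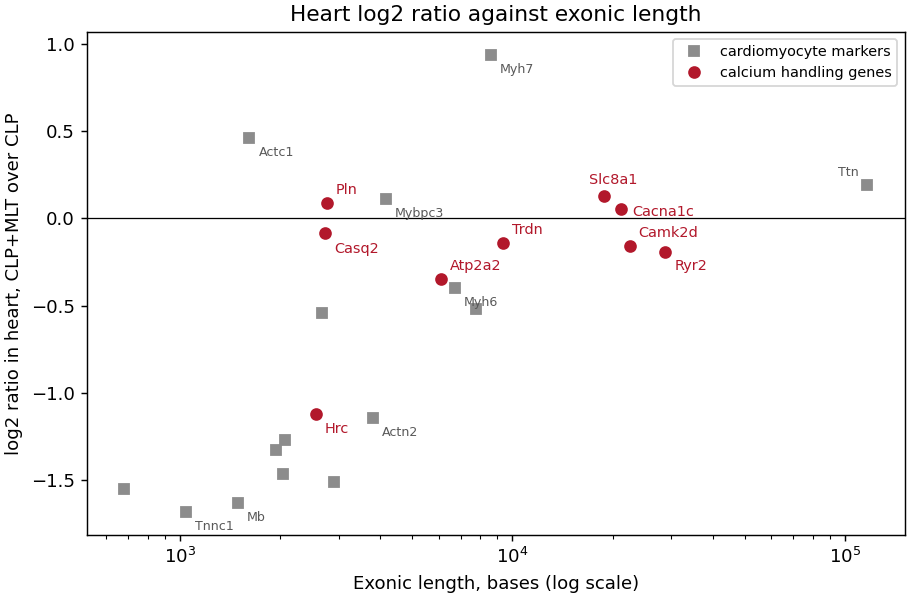
Log2 ratio in heart of CLP+MLT over CLP against exonic length on a log axis, for the calcium handling genes (red) and the cardiomyocyte markers (grey). Hrc at 2566 bases and Casq2 and Pln at 2736 and 2759 bases had like lengths and different ratios. The part of length in the ratios was not tested.

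Genes with the pattern nearest to Atp2a2 and Ryr2 over the 4 libraries were sought among 10330 genes with at least 100 counts on average in heart. Likeness was the distance between log2(CPM + 0.5) values centred over the libraries. Nearest to Atp2a2 were Rnf144b (distance 0.0398), Amigo2 (0.0859) and Amotl1 (0.0871). Nearest to Ryr2 were Lrrc2 (0.712), the Z-disc gene Actn2 (0.737) and Eef1a2 (0.751), all at larger distances than those of Atp2a2.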

How the data were processed

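Messenger RNA of 4 libraries was enriched with poly-T beads. Reads were trimmed (trim-galore) and aligned to mm10, and the authors deposited raw counts of reads per gene. The submitters' processing notes name HISAT2 2.1.0 and HTSeq, whose version, strand setting and gene annotation were not found. In every file 5 totals name no gene. They were left out and held 65.5% to 72.8% of a library.

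TMM factors came from edgeR 4.0.16 and, for comparison, size factors from DESeq2 1.42.0, both in R 4.3.3 and within a tissue. Ratios and intervals were computed with scipy 1.17.1 (Python 3.11.15). A prior count of 0.5, in proportion to library size, entered each log2 ratio. The methods state edgeR and a 1.5-fold threshold. Since no dispersion can be had from single libraries, only that fold was used, and tests on the reads served as alternatives. Copies made by PCR are not separate molecules, which no interval or floor includes. Identifiers were matched to GENCODE release M21 (GRCm38, the build of mm10), 55141 of 55401 with success, and 1 listed gene (Strit1, which encodes the SERCA-binding micropeptide DWORF) was not found by symbol.

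The genes and lists were chosen with earlier results of these data known. Named were all 10 genes, their families, other calcium genes past 1.5-fold in heart with at least 100 counts on average, the extremes of marker lists, markers that check a label, and nearest genes. Jph2, Fxyd1, Orai1, Myh6 and Ttn fall outside this rule and were picked once their values had been seen. Slc8a2, of a family, and Actn2, a nearest gene, fall inside it but were named in other places once their values had been seen. The procedure was run on simulated counts that held counting error and no variation between mice. That run therefore does not bear on differences between conditions. The value of 1 listed gene is not given.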

Additional observations from a re-analysis of the deposited data

Results flagged for a closer look

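Ryr2 went opposite ways in the tissues. Its log2 ratio was −0.19 in heart and 1.93 in kidney, each with a counting interval that left out 0, and heart minus kidney was −2.13. The difference between the conditions was not tested, because each group had 1 library. The kidney value came from 14 and 35 counts.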

How the results depend on the processing

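No paired analysis was possible because each group had 1 library. No library could be left out for the same reason. In heart, Hrc was the 1 gene past 1.5-fold under all 10 alternatives of scaling, filter, prior count and trend, at a fold change of 2, with the binomial test on the reads and at an assumed variation of 0.2. At an assumed variation of 0.4, 0 of the calcium handling genes passed in either tissue, and 0 of the other calcium genes. In kidney 2 of the calcium handling genes passed with scaling by library size only, 4 when genes were not filtered and 0 when the filter was set at 50 counts, which left out Ryr2. Of the 92 other calcium genes tested in heart, 8 passed at a fold change of 2, as did 9.83% of all genes. At an assumed variation of 0.2, 4 passed, against 4.19% of all genes. At the filter of 50 counts 13 passed. Of the 86 tested in kidney, 6 passed at a fold change of 2, against 9.03% of all genes. At an assumed variation of 0.2, 2 passed there, against 3.62%. The share over all genes is not given for the other scalings and filters. Heart minus kidney was 0.035 for Atp2a2, 0.092 for Slc8a1 and 0.55 for Camk2d with scaling by library size only, which turned the sign of Atp2a2, Slc8a1 and Cacna1c (0.15). Over the calcium handling genes and the alternatives of scaling, filter, prior count and trend, 1 of 90 log2 ratios in heart and 1 of 58 in kidney had another sign than the main value, both of Cacna1c. In heart some alternatives left the counting intervals of Atp2a2 (−0.38 to −0.28), Ryr2 (−0.28 to −0.13) and Pln (0.05 to 0.15). The same held for Cacna1c (−0.03 to 0.12) and Hrc (−1.13 to −1.06). The other measurable genes in heart stayed inside theirs. The median log2 ratio of the calcium handling genes ran from −0.21 to −0.08 in heart over these alternatives. In kidney it ran from −0.14 to 0.05, with a main value of 0.04, so its sign depended on the processing. No counting interval of a median was computed.

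Chosen after seeing the data, the length of the longest transcript gave shares of 99.3% for Ryr2 (CLP heart), 95.6% and 96.6% for Cacna1c, 32.5% and 27.5% for Camk2d and 99.5% for Pln (CLP heart). Adding Gm47644 to Pln, also chosen then, moved the log2 change of Atp2a2 to Pln to −0.48. Low counts limited the kidney values of Hrc, Casq2, Sln and Trdn, which had under 10 counts on average.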

Other observations

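Some other calcium genes differed between the kidney libraries, and those named here were chosen after their values were seen. Rcan1, which encodes a regulator of the phosphatase calcineurin, had 3045 counts in the CLP kidney and 628 in the CLP+MLT kidney, a log2 ratio of −1.62 (−1.75 to −1.50). In heart it had 356 and 335 counts and a log2 ratio of −0.08 (−0.30 to 0.14). Camk2b had 123 and 20 counts in kidney, a log2 ratio of −1.94 (−2.72 to −1.27). Of the 4 beta subunit genes of calcium channels, Cacnb1 (0.90), Cacnb2 (0.88) and Cacnb4 (0.89) had log2 ratios past 1.5-fold in kidney. By that threshold 10.6% of all genes tested in kidney were higher. Cacnb3, with 421 and 353 counts and a log2 ratio of 0.40, did not pass. In heart Cacnb1, Cacnb2 and Cacnb3 were at 0.21, −0.12 and 0.20. Cacnb4, with 75 and 49 counts, was at −0.60 there and past 1.5-fold lower, as were 12.7% of all genes tested in heart. None of these has a replicate.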
